A study of Mus musculus with 4 samples.

Results

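The 8 genes described here, Dmd, Utrn, Dag1, Sgca, Sgcb, Sgcd, Sspn and Dtna, encode proteins of the dystrophin glycoprotein complex (DGC). They were taken by symbol from 24320 gene symbols in the total RNA-seq tables and 24438 in the polyA RNA-seq tables, and each of the 8 had 1 entry in every table. C2C12, a mouse skeletal myoblast line, served throughout, and no allele or transgene was named in the labels. One total RNA library, depleted of rRNA, came from myoblasts (MB, 24 h before the switch to differentiation medium, given as DM -24 h) and another from myotubes (MT, DM 72 h by its label, while a legend of the study gives an earlier time for MT in an RNA-seq comparison of unnamed library type). The polyA libraries, 2 in number, came from MT at DM 48 h, with siRNA against hnRNPL in one (si-hnRNPL) and the control siRNA in the other (si-NC). With 1 library per condition there was no replicate check of any difference, and no test or p-value is given.

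The DGC links the actin cytoskeleton of a muscle fiber to the basal lamina outside it. Dystrophin, or its paralog utrophin, binds actin and the transmembrane protein β-dystroglycan; α-dystroglycan, cut from the same precursor, holds laminin outside the cell through its O-linked sugars. The sarcoglycans and sarcospan form a transmembrane subcomplex beside dystroglycan, while α-dystrobrevin joins dystrophin to syntrophins and to the signalling enzyme nNOS. Loss of dystrophin causes Duchenne muscular dystrophy, and loss of α-, β- or δ-sarcoglycan causes a limb-girdle muscular dystrophy.

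Expression was deposited as FPKM (fragments scaled to the length of the transcript and the depth of the library), with a 95% interval from Cufflinks. Because FPKM is per length, the levels of different genes can be set beside each other within a library, as far as the transcript lengths used by Cufflinks hold. Differences are given as log2((FPKM + 1) ratio), a scale that understates changes of genes with low FPKM. A gene was called higher or lower at an absolute log2 change of 0.58 or more, the 1.5-fold threshold of the study. The intervals of FPKM and of the changes reflect counting and the assignment of fragments in each library, not the variation between cultures. Their widths implied 59960176 fragments over all entries in MB, 54442423 in MT, 21341051 with si-NC and 14592480 with si-hnRNPL. By these numbers, which are approximate and not counts, the total RNA libraries were the deeper pair. Total RNA and polyA values are set side by side without a fold between them, because the RNA fraction and the day of differentiation both differed.

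The cultures carried the muscle markers that their labels implied. Myog, a myogenic regulator switched on at differentiation, was at an FPKM of 0.695 in MB, 251 in MT, 175 with si-NC and 249 with si-hnRNPL, and Myod1 was between 36.6 and 65.9 in the 4 libraries. The 7 markers of blood, endothelial, epithelial, Schwann and motor neuron cells all stayed below an FPKM of 0.62, with Epcam and Chat listed at 0 in both polyA libraries. In bulk RNA, a smaller number of fused cells and less RNA per fused cell cannot be told apart.

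Most of the 8 genes, which were chosen with earlier results of these data known, were higher in MT than in MB. Of the 8 genes, 6 were called higher (Sgca, Dtna, Dag1, Sgcb, Sspn and Utrn), 1 was called lower (Sgcd) and 1 was not called (Dmd, which was listed at 0 in MB). Among all 18624 named entries above 0 in at least 1 of both libraries, 10.4% were called higher and 18.3% lower. Among the 11816 with an FPKM of at least 1 in at least 1 library, which 7 of the 8 genes reached, these shares were 15.4% and 28.6%. The median change of the 8 genes was 1.03 on the log2 scale. The median of all named genes at FPKM 1 or more in both libraries was -0.23 (n = 10791, quartiles -0.66 and 0.20), so a gene of unaltered deposited FPKM already stood above the middle of the genes. Relative to that median, Dmd passed the threshold as well (0.62) and Sgcd kept its call by a small margin (-0.59), a call that upper-quartile scaling ended (-0.50). Over all entries above 0, centring on the median raised the share called higher to 16.4% and reduced the share called lower to 11.9%.

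**Figure D1:**
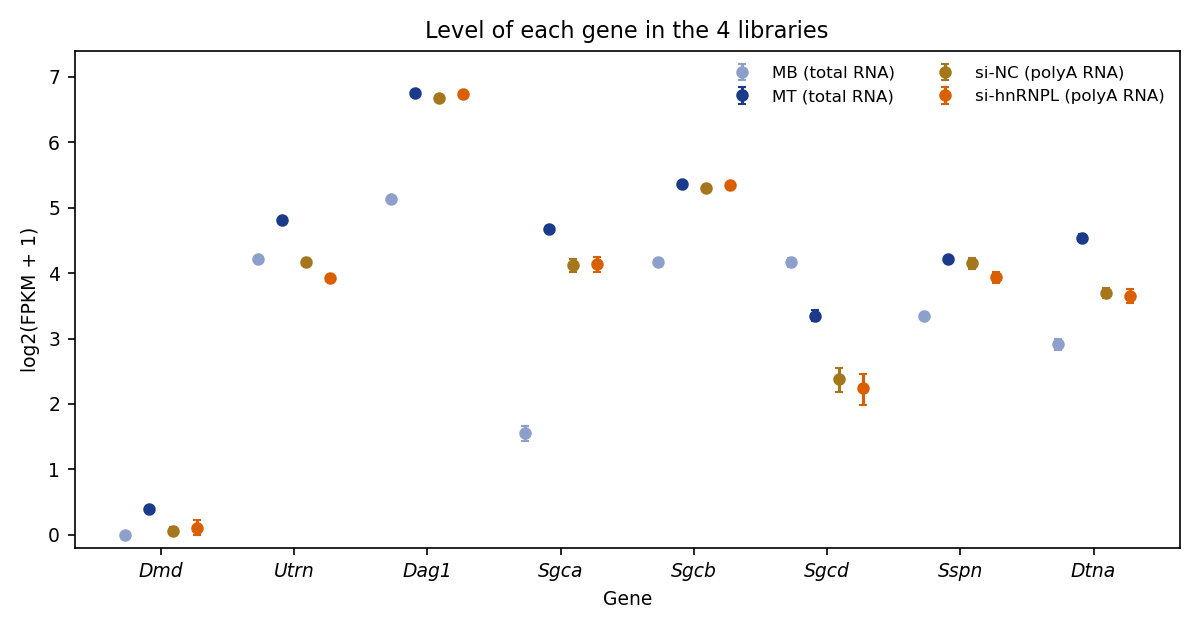
Level of each gene, as log2(FPKM + 1), in the 4 libraries; points are the deposited FPKM of 1 library each and bars its 95% interval. MT lies above MB for 7 of the 8 genes and below it for Sgcd, while both polyA libraries lie close to each other.

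Dystrophin mRNA was scarce in every library, and utrophin mRNA was abundant in all of them. Dmd, at chrX:80194209-82450389 in mm9, spans 2256 kb and carries 16 annotated transcripts, 5 of them coding. Its FPKM was 0 in MB, 0.311 in MT (0.278 to 0.343), 0.0390 with si-NC (0 to 0.0894) and 0.0707 with si-hnRNPL (0 to 0.164). The interval of Dmd thus lay above 0 in MT alone, where it corresponded to 369 fragments. With si-NC and si-hnRNPL the widths implied 2.40 and 2.31. These are not fragment counts, since the widths also hold the error of assigning fragments. For the listed 0 in MB, 3 fragments would have amounted to an FPKM of 0.00265, judged from the value of 1 fragment of Dmd in MT (0.000842). A listed 0 can also be a failed estimate, although the entry had the status OK. In MB 0 of 6 housekeeping genes were at 0, but the lowest of them stood at 19.1. Such abundant mRNAs cannot check the estimate of a scarce one, so a failed estimate of Dmd was not tested. Dmd was 1 of 1378 named entries listed at 0 in MB and above 0 in MT. Its log2 change of 0.39 (0.35 to 0.43) depends on the pseudocount and gives no fold.

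Utrn, at chr10:12101986-12581533, had an FPKM of 17.6 (17.3 to 17.8) in MB and 27.1 (26.8 to 27.4) in MT. The intervals were apart, and the log2 change of 0.60 (0.57 to 0.62) straddled the threshold, making this the narrowest call among the 8 genes. In the polyA libraries Utrn was at 17.0 (16.6 to 17.4) with si-NC and 14.3 (13.8 to 14.7) with si-hnRNPL. Per length, utrophin mRNA exceeded dystrophin mRNA everywhere. The Dmd to Utrn ratio of FPKM was 0 in MB, 0.0115 (0.0103 to 0.0127) in MT, 0.00230 (0 to 0.00526) with si-NC and 0.00496 (0 to 0.0115) with si-hnRNPL. In MT, Utrn was therefore 87.3 times as high as Dmd, and the ratios of both polyA libraries could not be told apart from each other or from 0.

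The start sites of Dmd, and those of the sarcoglycan genes Sgca and Sgcd, whose mRNAs differed in opposite directions, were examined for the E-box, the motif CANNTG bound by MyoD and other bHLH factors. The motif reads the same class of letters on either strand. The windows are RefSeq promoters (GRCm38.p6 table, 250 bases before to 50 after a start), each found by exact match at 1 place in mm9, printed on the strand of the gene with E-boxes in capitals. The first Dmd window, chrX:80193959-80194258 on the plus strand, lies at the start of the locus, the start used by full-length muscle dystrophin. The second, chrX:82293384-82293683 on the plus strand, lies 2099425 bp downstream at the annotated start of short coding transcripts. Sgca is at chr11:94837592-94837891 and Sgcd at chr11:47192778-47193077, both on the minus strand.
Dmd, locus start: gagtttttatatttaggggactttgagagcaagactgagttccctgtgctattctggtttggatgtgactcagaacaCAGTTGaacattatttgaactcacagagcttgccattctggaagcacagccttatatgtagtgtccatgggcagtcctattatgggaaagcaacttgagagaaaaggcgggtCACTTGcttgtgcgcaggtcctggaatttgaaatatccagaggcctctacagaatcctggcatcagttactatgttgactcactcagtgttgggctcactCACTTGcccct
Dmd, internal start: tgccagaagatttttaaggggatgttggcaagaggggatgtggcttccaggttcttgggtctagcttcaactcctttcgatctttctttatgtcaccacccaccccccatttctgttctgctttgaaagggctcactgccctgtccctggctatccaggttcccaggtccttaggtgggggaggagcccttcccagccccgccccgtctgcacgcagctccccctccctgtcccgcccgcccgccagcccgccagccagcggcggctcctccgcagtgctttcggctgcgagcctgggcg
Sgca: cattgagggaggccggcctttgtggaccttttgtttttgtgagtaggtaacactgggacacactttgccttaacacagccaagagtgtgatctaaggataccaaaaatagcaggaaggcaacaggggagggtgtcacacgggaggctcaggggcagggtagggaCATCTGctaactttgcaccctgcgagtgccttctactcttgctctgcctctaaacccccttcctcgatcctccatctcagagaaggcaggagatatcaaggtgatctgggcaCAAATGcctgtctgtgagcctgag
Sgcd: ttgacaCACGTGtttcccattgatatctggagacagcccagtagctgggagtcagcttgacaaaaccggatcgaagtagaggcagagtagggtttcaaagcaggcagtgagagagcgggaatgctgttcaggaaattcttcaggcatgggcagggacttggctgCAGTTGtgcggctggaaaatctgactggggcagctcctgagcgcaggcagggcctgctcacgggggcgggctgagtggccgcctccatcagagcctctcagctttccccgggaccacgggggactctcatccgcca
The Dmd window at the locus start held 3 E-boxes and the internal one 0, but the deposited FPKM is 1 value per gene and does not separate the starts. Sgca and Sgcd held 2 each, although Sgca was called higher and Sgcd lower. Of 10 windows from 7 of the 8 genes, 7 held at least 1 E-box, beside 72.3% of 32851 RefSeq promoters of the same length. The 2 windows of Dag1 overlap and hold the same E-box, so 1 site counts in 2 of these windows. The highest number was 7, some of them overlapping, in the Utrn window, and the windows of Sgcb and 1 of the 2 of Sspn held none. The variant CAGCTG occurred in 0 of the 10 windows and in 16.3% of all promoters. A match describes letters only, and its absence says nothing about a factor.

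Dystroglycan mRNA was the most abundant of the 8 in all 4 libraries. Dag1, at chr9:108107192-108166289, encodes the precursor of both dystroglycans. Its FPKM was 34.2 (33.5 to 34.8) in MB, 106 (105 to 108) in MT, 102 (98.8 to 104) with si-NC and 106 (103 to 109) with si-hnRNPL. MT stood 3.12-fold above MB in FPKM, a log2 change of 1.61 (1.58 to 1.64), with intervals far apart. Of the expressed genes, 96.3% had a lower change than Dag1.

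The sarcoglycans moved apart from each other. Sgca encodes α-sarcoglycan, a form found mainly in striated muscle, and lies at chr11:94824091-94837641. It had an FPKM of 1.93 (1.69 to 2.18) in MB, 24.6 (23.7 to 25.4) in MT, 16.4 (15.3 to 17.5) with si-NC and 16.6 (15.2 to 17.98) with si-hnRNPL. At 12.7-fold in FPKM and a log2 change of 3.12 (2.9998 to 3.26), it had the highest change of the 7 genes that were above 0 in both MB and MT, and 99.1% of the expressed genes had a lower change. Sgcb, at chr5:74023988-74038970, encodes β-sarcoglycan, a core subunit also found outside muscle. Its FPKM was 16.9 (16.4 to 17.4) in MB, 40.1 (39.4 to 40.8) in MT, 38.4 (37.3 to 39.5) with si-NC and 39.8 (38.4 to 41.2) with si-hnRNPL. Sgcb was thus 2.37-fold higher in MT than in MB, a log2 change of 1.20 (1.15 to 1.24).

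Sgcd, at chr11:46792285-47192804, encodes δ-sarcoglycan, which pairs with β-sarcoglycan in the core of the subcomplex, and it was the only one of the 8 that was lower in MT. Its FPKM was 17.0 (16.1 to 17.8) in MB and 9.19 (8.61 to 9.77) in MT. The log2 change was -0.82 (-0.92 to -0.71), and 18.3% of the expressed genes had a lower change. In polyA RNA it was at 4.21 (3.56 to 4.86) with si-NC and 3.72 (2.97 to 4.48) with si-hnRNPL, so Sgcd was the lowest sarcoglycan of the 3 in each library except MB.

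The makeup of the 3 sarcoglycan mRNAs therefore differed between MB and MT. In MB, Sgcd and Sgcb had like FPKM, with an Sgcd to Sgcb ratio of 1.00 (0.95 to 1.06), and Sgca made up 5.40% of the FPKM summed over the 3. The interval widths in MB implied 1742 fragments for Sgcd and 5002 for Sgcb, although Sgcd has 8.26 kb of exons and Sgcb 3.74 kb. The part of transcript length and fragment assignment in this ratio was not tested. In MT the Sgcd to Sgcb ratio was 0.229 (0.214 to 0.244) and the share of Sgca was 33.3%, with 54.3% for Sgcb and 12.4% for Sgcd. The Sgcd to Sgcb ratios of si-NC, 0.110 (0.0925 to 0.127), and of si-hnRNPL, 0.0935 (0.0743 to 0.113), had overlapping intervals. These ratios, unlike that of Dmd to Utrn, were chosen after the values were seen.

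Sgce, a gene outside the 8, encodes the widely expressed ε-sarcoglycan that can stand in for α-sarcoglycan. It was at 16.5 in MB and 24.9 in MT, a change of 0.56 that was not called. Relative to the median of all genes the change of Sgce was 0.79, past the threshold, so this call depends on the scaling. The Sgca to Sgce ratio was 0.117 (0.102 to 0.133) in MB and 0.988 (0.937 to 1.04) in MT, so both paralogs had like FPKM in MT. It was 0.406 (0.369 to 0.442) with si-NC and 0.446 (0.397 to 0.495) with si-hnRNPL, values whose intervals overlapped. Of the FPKM summed over Sgca, Sgcb, Sgcd and Sgce, Sgca held 3.70% in MB and 24.9% in MT, and Sgcd 32.4% and 9.30%.

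**Figure D2:**
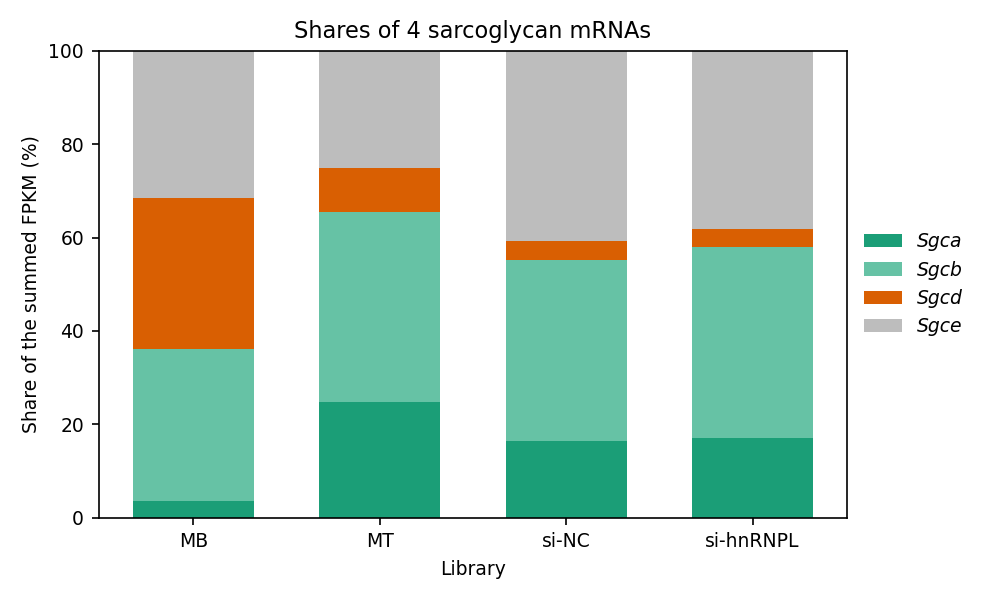
Share of each of 4 sarcoglycan genes in their summed FPKM (vertical axis, %) in each library; Sgce is not among the 8 genes. The share of Sgcd is 32.4% in MB and 9.30% in MT, and that of Sgca 3.70% in MB and 24.9% in MT.

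Sarcospan and α-dystrobrevin mRNAs were also higher in MT. Sspn, at chr6:145882667-145913745, encodes the tetraspanin-like protein of the subcomplex; its locus in the polyA tables begins further upstream, at 145880393. Its FPKM was 9.12 (8.79 to 9.44) in MB, 17.5 (17.1 to 17.9) in MT, 16.8 (15.8 to 17.7) with si-NC and 14.3 (13.4 to 15.2) with si-hnRNPL. The MT over MB log2 change was 0.87 (0.81 to 0.93). On the opposite strand, the processed transcript Gm15705 shares 69 bp with the exons of Sspn, 1.38% of them, and this was the only annotated gene with exons on those of any of the 8. Without a stated strand setting for the counting, reads on that stretch cannot be assigned to either.

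Dtna, at chr18:23468521-23818220, has 9 coding transcripts and encodes α-dystrobrevin. It had an FPKM of 6.54 (6.09 to 6.998) in MB, 22.3 (21.4 to 23.2) in MT, 11.98 (11.3 to 12.7) with si-NC and 11.6 (10.6 to 12.6) with si-hnRNPL. MT was 3.41-fold above MB, a log2 change of 1.63 (1.53 to 1.73), close to that of Dag1. The paralog Dtnb, encoding β-dystrobrevin, went the other way, from 6.14 in MB to 2.88 in MT (-0.88). The Dtnb to Dtna ratio was 0.939 (0.845 to 1.03) in MB, where both had like FPKM, and 0.129 (0.117 to 0.142) in MT.

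The order of the 8 levels shifted with differentiation. In MB it ran Dag1, Utrn, Sgcd, Sgcb, Sspn, Dtna, Sgca and Dmd, and the intervals of Utrn, Sgcd and Sgcb overlapped along that order. In MT it ran Dag1, Sgcb, Utrn, Sgca, Dtna, Sspn, Sgcd and Dmd, with all neighbors apart. Sgca thereby passed from the seventh place to the fourth and Sgcd from the third to the seventh. In both polyA libraries Dag1 and Sgcb led, Dtna, Sgcd and Dmd came last, and Utrn, Sspn and Sgca lay between them in different orders. Neighbors among these 3 overlapped in both libraries, while Sgca and Utrn, the first and last of the 3 with si-hnRNPL, had intervals apart there. The summed FPKM of the 8 genes was 103 (102 to 105) in MB, 248 (246 to 249) in MT, 206 (203 to 210) with si-NC and 207 (203 to 211) with si-hnRNPL.

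The second comparison asks whether siRNA against hnRNPL, an RNA-binding protein, was accompanied by other levels of these mRNAs. Hnrnpl itself was at an FPKM of 95.1 (92.7 to 97.5) with si-NC and 85.9 (83.1 to 88.7) with si-hnRNPL, a log2 change of -0.14 (-0.20 to -0.086), so its mRNA was lower by less than the threshold. The study reports a knockdown of hnRNPL that it examined by Western blot. That is a measure of protein, which these libraries do not give. None of the 8 DGC genes was called: 0 were higher and 0 lower, with changes between -0.24 and 0.064 and a median of -0.014. Over all 16767 named entries above 0, 1.03% were called higher and 0.62% lower, and over the 11370 with an FPKM of at least 1 in a library, 1.44% and 0.888%. With so few calls among all genes, a count of 0 among 8 lies near the background. The median of all genes was -0.011 (n = 11090, quartiles -0.13 and 0.12). For the 7 genes other than Dmd the intervals lay inside the threshold, the widest being that of Sgcd (-0.45 to 0.14). For Dmd, whose FPKM intervals reached 0 in both libraries, the pseudocount sets the interval, and a change could not be resolved. Its value was 0.043 with a pseudocount of 1, 0.30 with 0.1 and 0.72 with 0.01.

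**Figure D3:**
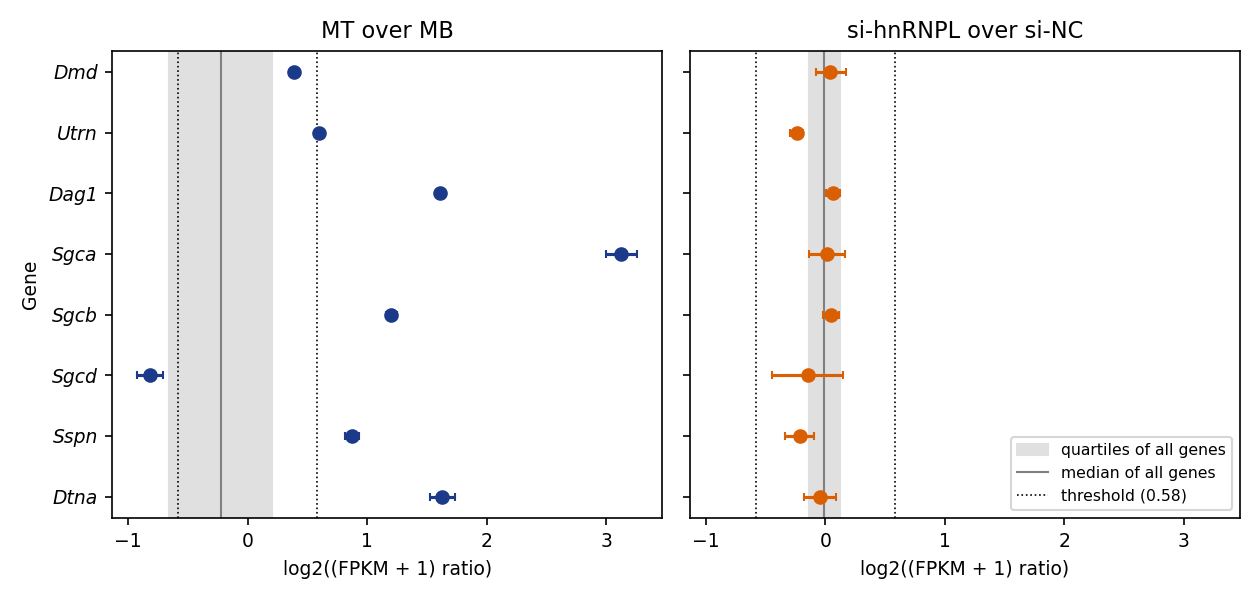
Change of each gene, as log2((FPKM + 1) ratio), for MT over MB (left) and si-hnRNPL over si-NC (right), with bars for the interval from the FPKM bounds of both libraries; the grey band and line are the quartiles and median of all named genes at FPKM 1 or more in both libraries, and dotted lines mark 0.58. On the left 6 genes lie beyond the upper line and Sgcd beyond the lower one, and on the right none lies beyond either.

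Utrn and Sspn were the only members whose FPKM intervals were apart between si-NC and si-hnRNPL. Utrn had a log2 change of -0.24 (-0.29 to -0.19) and Sspn of -0.22 (-0.33 to -0.097), and of the expressed genes 11.1% and 13.3% had a lower change. For Dag1 the FPKM intervals overlapped, while the interval of the change itself (0.064, from 0.0068 to 0.12) lay just above 0. The changes of the other genes were 0.049 (Sgcb), 0.043 (Dmd), 0.015 (Sgca), -0.043 (Dtna) and -0.14 (Sgcd), each with an interval that contained 0.

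Changes in this comparison moved with exonic length, taken over the merged exons of all annotated transcripts of a gene, which can exceed the length of its mRNA. Over 9849 protein-coding genes at FPKM 1 or more in both polyA libraries, which leaves out Dmd, split by exonic length into 10 bins of like size, the median change was 0.15 in the bin of the shortest genes and -0.13 in that of the longest, whose quartiles were -0.22 and -0.027. Utrn, with 13.2 kb of exons, belonged to the longest bin and lay below its lower quartile, while Sgcd and Dtna, also in that bin, lay above it. Sspn (5.00 kb) belonged with Dag1 (4.56 kb) to a bin whose median was -0.049 and whose lower quartile was -0.15. The part of length in these changes was not tested. Of the 7 muscle markers, 6 were above 0 in this comparison and Myf5 was at -0.40. Ckm, at 45.0 with si-NC and 74.3 with si-hnRNPL (0.71), and Acta1 (0.61) were called higher, and the part of this difference in the values of Utrn and Sspn was not tested.

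Beyond the 8 genes, 36 other genes of the complex, of its ligands and of dystroglycan glycosylation were examined. Between MT and MB, 7 of the 36 were called higher and 7 lower, with a median change of 0.060, beside the 10.4% and 18.3% of all entries given above. An FPKM of at least 1 in a library was reached by 31 of the 36, and among all such entries the shares were 15.4% and 28.6%. The counts by group below stand beside the same shares. Relative to the median of all genes, 10 of the 36 were higher and 2 lower, beside 16.4% and 11.9% of all entries above 0. Between si-hnRNPL and si-NC 0 of the 36 were called, with a median of -0.010. The largest change among them, that of Cav3, is given below.

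Of 2 other sarcoglycan genes, Sgce and Sgcz, 0 were called on the deposited FPKM, and Sgcz was near 0 in all libraries. Among Dtnb and 4 syntrophin genes, adaptors that bind dystrobrevin and dystrophin, 1 of 5 was called higher and 1 lower. Sntb1, encoding β1-syntrophin, had FPKM values of 1.11 in MB and 19.2 in MT (3.26), while Sntb2, encoding β2-syntrophin, was at 11.7 and 12.5 (0.093). Both signalling partners were higher in MT. Cav3, encoding the muscle caveolin, was at 0.327 in MB and 19.5 in MT (3.95), and Nos1, encoding nNOS, at 0.0430 and 1.39 (1.20). In polyA RNA of MT at DM 48 h, Cav3 was at 4.05 (3.33 to 4.76) with si-NC and 6.14 (5.05 to 7.24) with si-hnRNPL, intervals that were apart. The ratio of these FPKM values was 1.52. With 1 added to each, the log2 change was 0.50 (0.19 to 0.80), which was not called. Nos1 stood at 0.0499 with si-NC and 0.0544 with si-hnRNPL.

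Of 9 genes for extracellular ligands of dystroglycan, with the β and γ chains of laminin counted among them, 2 were higher and 2 lower. Lama2, the α2 chain of the laminin of the muscle basal lamina, was at 4.21 in MB and 15.9 in MT (1.70), and Lama4 at 0.297 and 2.06 (1.24). In polyA RNA at DM 48 h, with si-NC and si-hnRNPL, Lama2 was at 5.62 and 4.59 and Lama4 at 0.206 and 0.222. The β1 and γ1 chains that can join these α chains were lower. Lamb1 was at 56.9 and 28.7 (-0.97), still the most abundant of the 9 in MT, and Lamc1 at 23.0 and 12.8 (-0.80). Of 18 genes for O-mannosylation of dystroglycan, 2 were higher and 4 lower, all by small margins. Pomgnt2 (0.65) and Dpm1 (0.58) were higher, and Gmppb (-0.77), Pomt1 (-0.70), Dpm2 (-0.61) and Tmem5 (-0.59) were lower. Relative to the median of all genes these 4 falls shrank to between -0.55 and -0.36, under the threshold, and that of Lamc1 also fell just short of it. Pomgnt1, the most abundant of the 18 in MT, was at 38.5 in MB and 32.1 in MT (-0.25).

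**Figure D4:**
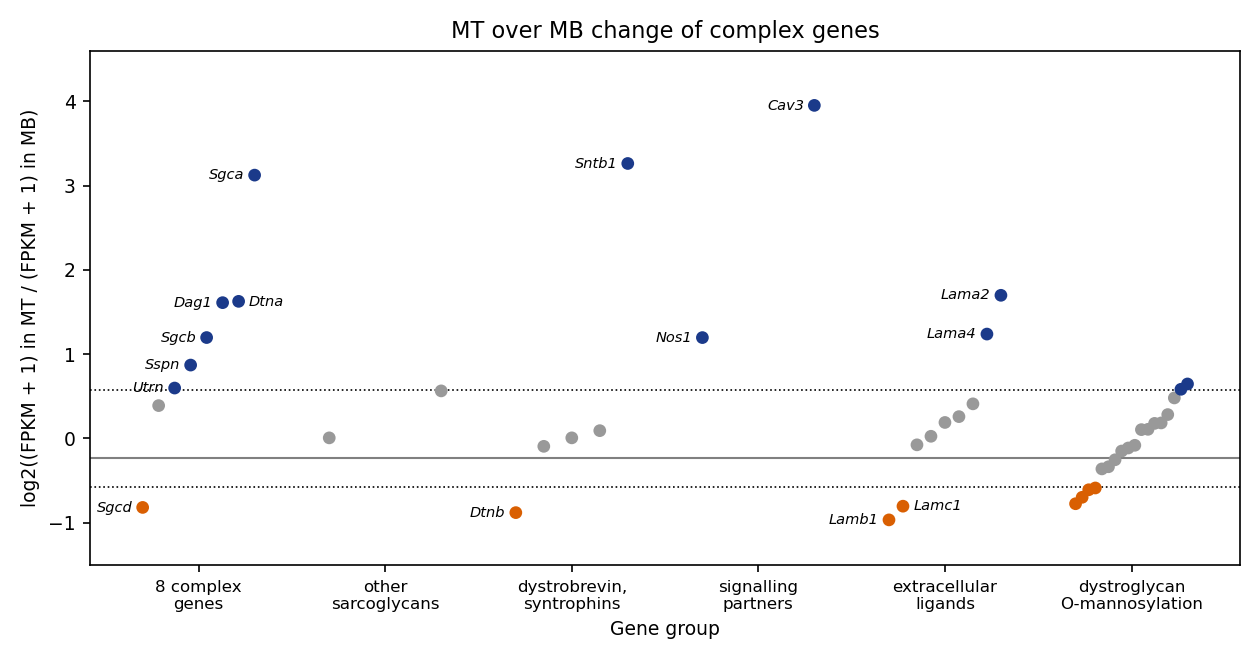
MT over MB change, as log2((FPKM + 1) ratio), of the 8 DGC genes and 36 related genes by group (horizontal axis); blue points were called higher, orange ones lower and grey ones neither, dotted lines mark 0.58 in either direction and the grey line the median of all genes (-0.23). Sgca, Sntb1 and Cav3 lie above 3, and the O-mannosylation genes, not labelled, lie between -0.77 and 0.65.

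The total RNA tables also list transcript units assembled from the reads, and 10 of them overlapped the 8 loci by at least 1 bp, all off the annotated exons. Dtna held 8 and Dmd 2. The units of Dmd, chrX:80387529-80388388 and chrX:80405697-80406642, had 11.0 fragments each in MT and were listed at 0 in MB, with changes of 0.24 and 0.22 that were not called. Of the 8 units in Dtna, 5 were called higher in MT, beside 19.8% of all 36780 units. These 5 lie between 23794950 and 23813292 on chromosome 18, the first of them 751 bp past the end of a coding transcript. Their FPKM ran from 0.136 to 0.343 in MB and from 1.37 to 1.56 in MT, so all 5 had like levels in MT, an FPKM far under the 22.3 of Dtna itself. No strand is given for a unit, and whether these belong to Dtna transcripts was not tested.

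By the Euclidean distance over log2(FPKM + 1) in the 4 libraries, among 11619 genes, the genes most like Utrn were Nufip2 (0.153), Zfp266 (0.224) and Dyrk2 (0.263). Nufip2 was at an FPKM of 17.95 in MB, 24.4 in MT, 16.9 with si-NC and 14.6 with si-hnRNPL, beside 17.6, 27.1, 17.0 and 14.3 for Utrn. The genes compared had an FPKM of at least 1 in at least 1 library, a level that Dmd itself did not reach. Its nearest genes, Aldh3b3 (0.649), A630076J17Rik (0.688) and Sorbs2os (0.730), passed that filter through MT alone, with FPKM between 1.03 and 1.13, so that they exceeded Dmd there was fixed by the filter. In the other libraries these genes had an FPKM below 0.17.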

How the data were processed

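Total RNA-seq (MB, MT) and polyA RNA-seq (si-NC, si-hnRNPL) tables were used, with 1 library per condition. The authors discarded reads under 36 bp, mapped to mm9 with TopHat 2.0.13, and deposited FPKM from Cufflinks 2.1.1 with a 95% interval. The 8 genes were taken by symbol. Changes were log2((FPKM + 1) ratio), called at 0.58, with intervals combining in quadrature the FPKM bounds of both libraries, without replicate error. Fragment numbers came from the interval widths and are approximate, not counts, in polyA and in total RNA. For each called list the same shares over all named entries were computed. Every member was named, as were related genes called at an FPKM of at least 1, the most abundant of a group, markers, and the 3 nearest genes to Dmd and Utrn. The members and gene lists were chosen with earlier results of these data known. Exons and loci came from GENCODE (mm9) and promoters from RefSeq (GRCm38.p6), Dtna not used. Python 3.11.15, numpy 2.4.6, pandas 2.3.3 and matplotlib 3.10.9 were used. The code of the calls was tested on simulated data with counting error only. Those data held no scarce genes and no variation between cultures. Some related genes are not reported here. GRO-seq and CLIP-seq were not analysed here.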

Additional observations from a re-analysis of the deposited data

How the results depend on the processing

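No paired analysis was possible because there was 1 library per condition. The alternatives were pseudocounts of 0.1 and 0.01, a filter at an FPKM of 1, centring on the median of all genes, upper-quartile scaling and a 2-fold threshold. Between MT and MB, the number of the 8 genes called higher was 6, 7 with either smaller pseudocount or with centring (Dmd added), and 4 at 2-fold. Over all entries the share called higher was 10.4%, 18.3% and 27.2% with pseudocounts of 1, 0.1 and 0.01, 16.4% with centring, 17.1% with upper-quartile scaling and 5.00% at 2-fold. The number called lower was 1, and 0 with upper-quartile scaling (Sgcd at -0.50) or at 2-fold, where the share of all entries was 10.2% and 8.44%, beside 18.3%. Of the 36 related genes, 7 were higher, but 10 with centring and 11 with a pseudocount of 0.01 or upper-quartile scaling. The number lower was 7, but 2 with centring or upper-quartile scaling and 0 at 2-fold. Between si-hnRNPL and si-NC, 0 of the 8 genes were called, and 1 was higher with a pseudocount of 0.01 (Dmd, 0.72). Of the 36, 0 were higher, but 1 with a pseudocount of 0.1 and 2 with 0.01, settings at which 4.94% and 10.4% of all entries were called higher. The change of Dmd in MT over MB was 0.39, 2.04 and 5.00 with pseudocounts of 1, 0.1 and 0.01. With 1 added to both values, the Dmd to Utrn ratio was 0.0538 in MB, 0.0466 in MT, 0.0577 in si-NC and 0.0702 in si-hnRNPL, far from the ratios without it and in another order, since 1 exceeds every FPKM of Dmd. No called change of the 8 genes turned its direction under the alternatives run, and 36 of 64 single-gene values stayed within their interval. In polyA RNA the FPKM intervals of Dmd, which reach 0, limit any statement on it.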
